A study of Homo sapiens with 6 samples.

Results

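The genes described are 6 caspases (CASP1, CASP2, CASP6, CASP8, CASP9 and CASP10), the apoptosome scaffold APAF1 and the caspase inhibitor XIAP. They were taken by symbol from a table of 30741 genes, in which each of the 8 had a single entry, and all 8 passed the filter that left 11440 genes for testing. RNA-seq was run on MOLM-13 cells, a human acute myeloid leukaemia cell line labelled as wild type. Cells were kept for 48 h in 20 nM TSN, in 3 libraries called biological replicates in the labels, or in the solvent DMSO for the same time, in 3 libraries. TSN is read here as toosendanin, a triterpenoid of the tree Melia toosendan that the series title names; the title relates it to DDX5, c-Myc and protein synthesis in this leukaemia. Groups follow the sample titles, because the treatment field reads DMSO on all 6 samples, and the columns assigned to DMSO do not carry that word but belong to the only other group.

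Caspases are cysteine proteases made as inactive precursors. In the death receptor route, ligands such as TRAIL bring CASP8 and CASP10 together on the adaptor FADD, and CFLAR holds them back. In the mitochondrial route, released cytochrome c makes APAF1 assemble into the apoptosome, which activates CASP9. Both routes converge on executioner caspases, CASP6 among them, and XIAP binds and blocks CASP9. CASP2 is activated on a separate platform built by PIDD1 and CRADD, and CASP1 matures interleukins in the inflammasome. Much of this control acts on the proteins, and RNA was the only quantity measured.

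CASP6 fell after TSN, and none of the other 7 genes passed the test in either direction. The test was limma on log2(FPKM + 1), with Benjamini-Hochberg adjustment over all 11440 genes and a threshold of 0.05; FPKM counts fragments per kilobase of exon and scales them to the library. That is 1 of 8 genes, 12.5%, beside 14.9% of all genes tested in either direction and 7.2% in the lower direction. The 3 TSN values lay apart from the 3 DMSO values in 3 of the 8 genes, 37.5%, beside 39.2% of all genes tested. CASP6 and CASP8 were lower in every TSN library, as were 22.9% of all genes, and CASP1 was higher in every TSN library, as were 16.2%. Both shares, taken over either direction, lay slightly under those of all genes, and with 8 genes 1 gene is 12.5%, so nothing is read from the counts by direction. The median log2 fold change of the 8 genes was -0.05, beside -0.10 over all genes. In such bulk samples, fewer cells of a kind and less RNA per cell cannot be told apart.

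**Figure D1:**
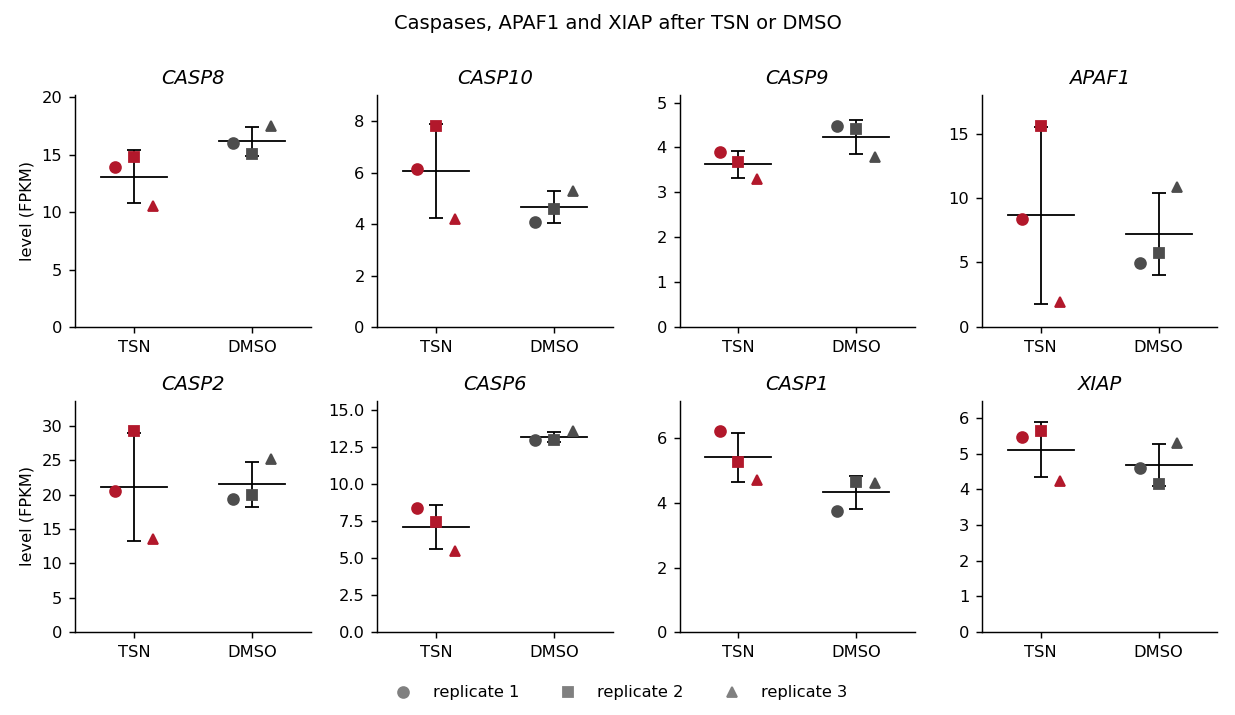
Level of each gene in FPKM (y axis, from 0) in TSN and DMSO libraries, with 1 point per library, a bar at the mean and error bars of 1 SD (n = 3 each). CASP6 is lower in every TSN library, 5.46 to 8.38 FPKM against 12.99 to 13.61 FPKM in DMSO, while APAF1 spreads from 1.96 to 15.6 FPKM within the TSN group.

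FPKM is scaled by length, so levels can be ordered across genes. CASP2 stood highest in both groups, with means of 21.1 FPKM in TSN and 21.5 FPKM in DMSO, followed by CASP8. CASP9 was the lowest in both, at 3.62 FPKM in TSN and 4.23 FPKM in DMSO. In TSN, APAF1, CASP6, CASP10, CASP1 and XIAP filled the ranks between, with means of 8.65, 7.09, 6.06, 5.41 and 5.12 FPKM, and their ranges overlapped from each gene to the next. In DMSO, CASP6 ranked below CASP2 and CASP8, at 13.2 FPKM, with no overlap with either, and above every DMSO value of APAF1, XIAP, CASP10, CASP1 and CASP9, whose ranges overlapped from each to the next. None of the 8 was silent: the lowest value of all, 1.96 FPKM for APAF1 in TSN 3, stood for an estimated 73.9 fragments per kilobase of exon, a counting error of about 11.6% on 1 kb.

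Depth, estimated from the smallest steps in the FPKM of single-exon genes, was 37759847 to 50410021 fragments in TSN libraries and 37154394 to 41646958 in DMSO libraries. TSN 3 stood apart, with a median level over the tested genes of 2.97 on the log2(FPKM + 1) scale, against 3.30 in TSN 1, 3.40 in TSN 2 and 3.32 to 3.46 in DMSO libraries. Myeloid identity genes were present, led by MPO at 1989 to 2041 FPKM in TSN and 3413 to 3668 FPKM in DMSO. HOXA9 (1.07 to 1.13 FPKM in TSN, 0.613 to 0.663 in DMSO) and MEIS1 (0.140 to 0.256 in TSN, 0.215 to 0.469 in DMSO) were low. The name of the cell line is taken from the labels, and whether these levels match it was not tested. Of 16 markers of erythroid, megakaryocytic, lymphoid, epithelial, stromal and endothelial cells, 10 were used; 6 reached 1 FPKM in any library, and the markers summed to 21.9 to 25.5 FPKM in TSN and 16.1 to 17.7 FPKM in DMSO. CD3E, KLF1, COL1A1 and VWF stayed under 1 FPKM in every library. ITGA2B, the integrin of megakaryocytes, rose to 3.16 ± 0.219 FPKM in TSN, against 1.61 ± 0.225 FPKM in DMSO (SD, n = 3 each; limma adjusted p = 0.0209). PECAM1, present on endothelial and myeloid cells, stood at 6.40 ± 1.37 FPKM in TSN and 4.09 ± 0.558 FPKM in DMSO (limma adjusted p = 0.117). The part of these shifts in the results was not tested.

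The death receptor initiators CASP8 and CASP10 are neighbours on chromosome 2, and the ratio of their RNA was lower in every TSN library than in any DMSO library, though 3 against 3 libraries cannot reach a p of 0.05. CASP8 (ENSG00000064012, GRCh38 chromosome 2, 201233443 to 201287711, plus strand) stood at 13.9, 14.8 and 10.5 FPKM in TSN 1, 2 and 3, against 16.0, 15.0 and 17.5 FPKM in DMSO 1, 2 and 3. All TSN values were lower, though the highest of them lay just under the lowest DMSO value. The log2 fold change of -0.30 ± 0.17 SE did not pass (limma adjusted p = 0.283). Without both libraries numbered 3 it was smaller, -0.10 (limma adjusted p = 0.527). With the dependence on transcript length and base composition taken out of every library, it was also -0.10 (limma adjusted p = 0.517).

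CASP10 (ENSG00000003400, chromosome 2, 201182881 to 201229406, plus strand) had 6.15, 7.84 and 4.19 FPKM in TSN 1, 2 and 3, against 4.09, 4.61 and 5.30 FPKM in DMSO 1, 2 and 3. TSN 1 and TSN 2 exceeded every DMSO library, whereas TSN 3 fell within the DMSO range. The log2 fold change was 0.29 ± 0.23 SE (limma adjusted p = 0.431). Without both libraries numbered 3 it was 0.57 with a limma adjusted p of 0.0410. When the dependence on transcript length and base composition was taken out of every library, an alternative added after the data were seen, it was 0.46 with a limma adjusted p of 0.00881.

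Ratios within a library do not depend on how that library was scaled. CASP8 RNA was 2.27, 1.89 and 2.51 times that of CASP10 in TSN 1, 2 and 3, against 3.91, 3.26 and 3.31 times in DMSO 1, 2 and 3. The groups did not overlap, and the mean log2 ratio was lower by 0.66 in TSN (log2 difference -0.66, two-sided exact permutation p = 0.1, n = 3 each). That is the smallest p that 3 against 3 allows, and it became 0.2 after Benjamini-Hochberg adjustment over the 4 ratios computed. CFLAR, the catalytically inactive relative of these caspases that blocks their activation, is the next gene at this locus (chromosome 2, 201116104 to 201176687). Its level was 5.81 ± 1.38 FPKM in TSN and 5.37 ± 0.158 FPKM in DMSO (SD, n = 3 each; log2 fold change 0.08 ± 0.19 SE, limma adjusted p = 0.814). CASP8 stood at 2.26, 2.12 and 2.45 times CFLAR in TSN 1, 2 and 3, against 3.01, 2.86 and 3.16 times in DMSO 1, 2 and 3. These groups did not overlap either (log2 difference -0.40, two-sided exact permutation p = 0.1, adjusted 0.2, n = 3 each).

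**Figure D2:**
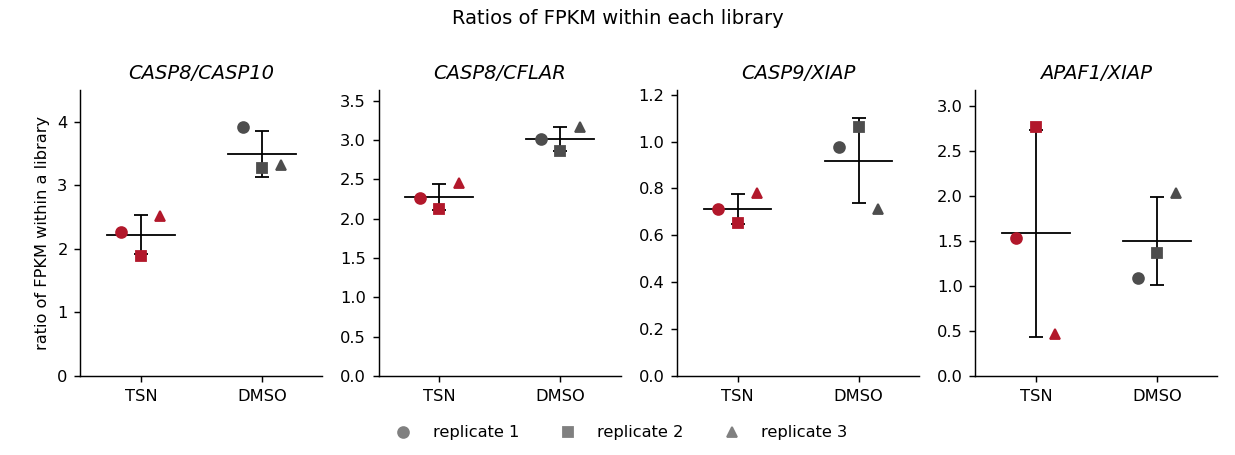
Ratio of FPKM between pairs of genes within each library (y axis, from 0), in TSN and DMSO, with 1 point per library, the mean and 1 SD (n = 3 each). CASP8/CASP10 and CASP8/CFLAR are lower in every TSN library, while CASP9/XIAP and APAF1/XIAP overlap between groups.

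In the mitochondrial route, APAF1 spread so widely between libraries of a group that no shift could be read. APAF1 (ENSG00000120868, chromosome 12, 98645141 to 98735433, plus strand) stood at 8.38, 15.6 and 1.96 FPKM in TSN 1, 2 and 3, against 4.99, 5.71 and 10.8 FPKM in DMSO 1, 2 and 3. The TSN libraries thus held both the highest and the lowest value of the 6. The log2 fold change was -0.02 ± 0.64 SE (limma adjusted p = 0.990). It turned positive in 6 of 16 alternatives and reached 0.98 without both libraries numbered 3 (limma adjusted p = 0.0452). Among its exon bases, 9.48% overlap ANKS1B on the other strand, which was listed at 0.017 FPKM or less in every library.

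The gap between TSN 2 and TSN 3 in APAF1, 2.49 on the log2(FPKM + 1) scale, was wider than in 99.6% of the genes tested. Its gap between DMSO 3 and DMSO 1, 0.98 on that scale, was wider than in 98.3%. These gaps went together over all genes, with r = 0.848 across 11440 genes, a description only, since each group's libraries are shared by all genes. They also went with exon length: the median of TSN 2 minus TSN 3 was -0.32 in the fifth of genes with the shortest exons and 0.75 in the fifth with the longest. APAF1, CASP2 and XIAP belong to the fifth with the longest exons, and CASP6 to the shortest. TSN 3 had the lowest TSN value in all 8 genes, beside 61.9% of all genes tested. Removing the trend with length and GC content left APAF1 at 0.20 with a limma adjusted p of 0.763.

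**Figure D3:**
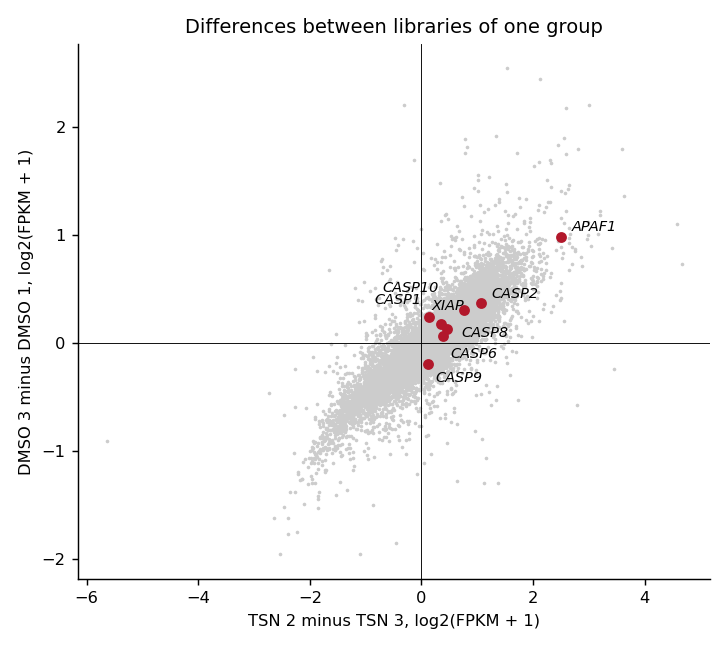
Difference between TSN 2 and TSN 3 (x axis) against that between DMSO 3 and DMSO 1 (y axis) in log2(FPKM + 1), with 1 grey point per tested gene and the 8 genes in red. APAF1 lies at 2.49 and 0.98, far out along the cloud, while CASP6 lies at 0.38 and 0.06, near the origin.

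CASP9, the protease that the apoptosome activates (ENSG00000132906, chromosome 1, 15490832 to 15526534, minus strand), had 3.89, 3.68 and 3.30 FPKM in TSN 1, 2 and 3, against 4.49, 4.42 and 3.79 FPKM in DMSO 1, 2 and 3. The groups overlapped by TSN 1 and DMSO 3 alone, and the log2 fold change of -0.18 ± 0.14 SE did not pass (limma adjusted p = 0.425). XIAP (ENSG00000101966, chromosome X, 123859724 to 123913979, plus strand) stood at 5.47, 5.65 and 4.23 FPKM in TSN 1, 2 and 3, against 4.59, 4.17 and 5.32 FPKM in DMSO 1, 2 and 3. Its groups overlapped too (log2 fold change 0.10 ± 0.16 SE, limma adjusted p = 0.711). CASP9 RNA was 0.714 ± 0.0643 times that of its inhibitor XIAP in TSN and 0.917 ± 0.181 times in DMSO (SD; log2 difference -0.34, two-sided exact permutation p = 0.2, adjusted 0.267, n = 3 each). APAF1 stood at 1.53, 2.77 and 0.463 times XIAP in TSN 1, 2 and 3, against 1.09, 1.37 and 2.04 times in DMSO 1, 2 and 3 (log2 difference -0.21, two-sided exact permutation p = 0.9, n = 3 each).

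CASP2, one of the most conserved caspases (ENSG00000106144, chromosome 7, 143288215 to 143307696, plus strand), had 20.5, 29.3 and 13.5 FPKM in TSN 1, 2 and 3, against 19.3, 20.0 and 25.2 FPKM in DMSO 1, 2 and 3. TSN again held the highest and the lowest value, and the log2 fold change was -0.08 ± 0.28 SE (limma adjusted p = 0.874) and positive in 6 of 16 alternatives. PIDD1, which scaffolds the platform that activates CASP2 and is a p53 target, rose in the same libraries. It reached 23.8, 19.9 and 35.6 FPKM in TSN 1, 2 and 3, against 13.7, 11.7 and 9.85 FPKM in DMSO 1, 2 and 3 (log2 fold change 1.08 ± 0.24 SE, limma adjusted p = 0.0323). Its limma adjusted p missed the threshold without TSN 1 (0.110), DMSO 1 (0.0931), DMSO 2 (0.128) or DMSO 3 (0.120). The adaptor CRADD, which links PIDD1 to CASP2, stood at 11.5 ± 1.30 FPKM in TSN and 12.1 ± 0.627 FPKM in DMSO (SD, n = 3 each; limma adjusted p = 0.753).

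CASP6, an executioner that cleaves nuclear lamin A, was the gene that changed (ENSG00000138794, chromosome 4, 109688622 to 109703583, minus strand). It stood at 8.38, 7.42 and 5.46 FPKM in TSN 1, 2 and 3, against 13.0, 13.0 and 13.6 FPKM in DMSO 1, 2 and 3. Every TSN value lay far below the narrow DMSO range. The mean was 7.09 ± 1.49 FPKM in TSN and 13.2 ± 0.355 FPKM in DMSO (SD, n = 3 each), lower by 46.3% (-46.3%). The log2 fold change of -0.83 ± 0.18 SE passed (limma adjusted p = 0.0273), and it also exceeded in size the 0.584 that the design text of the series sets. The submitters name DESeq2, whereas -0.83 is a limma value on the log2(FPKM + 1) scale, so the measures may not be alike. With 1 library left out the log2 fold change of CASP6 ran from -0.94 to -0.68. Its limma adjusted p missed the threshold without TSN 1 (0.0731), DMSO 1 (0.119), DMSO 2 (0.124) or DMSO 3 (0.109). Exons of CASP6 share 5.40% of their bases with MCUB on the other strand, listed at 0.863 to 1.08 FPKM in TSN and 0.0861 to 0.748 FPKM in DMSO.

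Of the summed FPKM of the 8 genes described, CASP6 made up 8.29% to 11.5% in TSN and 15.8% to 18.5% in DMSO, and CASP10 8.43% to 8.75% in TSN and 5.83% to 6.44% in DMSO. These were 2 of the 8 shares, and the shares of the other genes overlapped between groups. The shares are descriptions and carry no test.

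The RefSeq window of the 250 bases before the CASP6 start (GRCh38.p14, chr4:109703446-109703695, minus strand) is shown because CASP6 alone of the 8 passed the test. Capitals mark GGGCGG, the GC box letters, on either strand.
CASP6: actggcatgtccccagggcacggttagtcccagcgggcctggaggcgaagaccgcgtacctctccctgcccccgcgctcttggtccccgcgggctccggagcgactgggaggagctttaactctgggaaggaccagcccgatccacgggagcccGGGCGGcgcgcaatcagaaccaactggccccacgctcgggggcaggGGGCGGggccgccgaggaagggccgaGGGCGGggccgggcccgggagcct
The window is 74.0% G and C and holds GGGCGG at 3 places, none overlapping another. GGGCGG is not particular to CASP6: 8 of the 12 windows of the genes matched hold it, and each CASP9 window holds it at 8 places. The XIAP windows at 123859458 to 123859707 and at 123859564 to 123859813 overlap and share a GGGCGG place. The windows counted are thus not all separate stretches. Of all 35116 RefSeq windows of this length, 42.6% hold GGGCGG at least once. CACGTG, the E-box letters that MYC is known to bind, was searched on both strands and is in none of the 12 windows of the 6 genes matched (CASP2, CASP6, CASP8, CASP9, APAF1 and XIAP), and in 6.34% of all windows. These are descriptions of letters in a window, not of binding.

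Over the 6 libraries, the expressed genes closest in pattern to CASP6 were MED11, a Mediator subunit (r = 0.998), and HOXC10, a homeobox gene (r = 0.997). MED11 fell to 6.05, 4.81 and 3.23 FPKM in TSN 1, 2 and 3, against 10.1, 9.77 and 10.3 FPKM in DMSO 1, 2 and 3 (log2 fold change -0.99, limma adjusted p = 0.0284). HOXC10 had a log2 fold change of -0.50 (limma adjusted p = 0.0662). With only 6 libraries, 178 of 7434 genes compared reached r of at least 0.98.

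CASP1, which matures interleukin-1 beta and interleukin-18 (ENSG00000137752, chromosome 11, 105025443 to 105035250, minus strand), stood at 6.24, 5.27 and 4.73 FPKM in TSN 1, 2 and 3, against 3.74, 4.64 and 4.62 FPKM in DMSO 1, 2 and 3. Every TSN value was higher, TSN 3 by a narrow margin. The log2 fold change of 0.26 ± 0.16 SE did not pass (limma adjusted p = 0.314); after removal of the length and GC trend it was 0.40 with a limma adjusted p of 0.0417. The neighbouring gene CARD16 encodes a CASP1 inhibitor and shares part of its sequence, so that fragments there could be counted for either. The first 90 coding bases of each (GENCODE 29 transcripts) are shown because they differ in 1 base, which is in capitals.
CASP1: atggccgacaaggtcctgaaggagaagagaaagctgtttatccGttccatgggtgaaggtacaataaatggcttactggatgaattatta
CARD16: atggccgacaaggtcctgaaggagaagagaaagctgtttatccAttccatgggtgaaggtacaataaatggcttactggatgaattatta
Of the distinct 50-base words in CASP1 transcripts, 4.37% also occur in CARD16. CARD16 itself stood at 1.47, 0.795 and 1.66 FPKM in TSN 1, 2 and 3, against 0.833, 0.548 and 0.973 FPKM in DMSO 1, 2 and 3, below CASP1 in every library.

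Beyond the 8 genes, 57 genes of the same pathways were listed, and 41 reached the filter. Of these, 7 rose and 1 fell, where 7.71% of all genes tested rose and 7.2% fell. Of the 7, IL18 and TNFRSF10C reached the filter only because their TSN libraries did. Among the 36 genes at 1 FPKM or more in every library, 5 rose (13.9%) and 1 fell (2.78%). In the list of death receptors, ligands and adaptors, 4 of 13 rose (30.8%) and 0 fell. TNFRSF10C is 1 of these 4, and its call is not independent of its direction, because its TSN libraries brought it past the filter. TNFSF10, which encodes TRAIL, the ligand upstream of CASP8 and CASP10, rose to 44.4, 45.6 and 30.4 FPKM in TSN 1, 2 and 3, against 11.4, 11.6 and 11.4 FPKM in DMSO 1, 2 and 3. Its log2 fold change was 1.70 ± 0.18 SE (limma adjusted p = 0.00419). TNFRSF25, a death receptor, rose to 18.9 ± 1.34 FPKM in TSN, against 9.45 ± 0.799 FPKM in DMSO (SD, n = 3 each; log2 fold change 0.93 ± 0.14 SE, limma adjusted p = 0.00900). The other two, named after their values were seen, were the TRAIL decoy receptors TNFRSF10C (2.55 ± 0.522 FPKM in TSN, 0.752 ± 0.244 FPKM in DMSO) and TNFRSF10D (14.1 ± 1.19 FPKM in TSN, 8.16 ± 0.933 FPKM in DMSO), with limma adjusted p of 0.0138 for TNFRSF10C and 0.0246 for TNFRSF10D. The TRAIL receptors TNFRSF10A (log2 fold change -0.04, limma adjusted p = 0.930) and TNFRSF10B (0.24, limma adjusted p = 0.675) did not pass. FADD (-0.42, limma adjusted p = 0.106) and RIPK1 (-0.39, limma adjusted p = 0.236) did not pass, though lower in every TSN library, as were 22.9% of all genes. TRAF2 did not pass either (0.67, limma adjusted p = 0.0533), though higher in every TSN library, as were 16.2%. These too were named after their values were seen. TNFSF10 passed with any 1 library left out. The limma adjusted p missed the threshold without TSN 1, DMSO 1 or DMSO 2 for TNFRSF25 (0.0628, 0.0670 and 0.0580), TNFRSF10C (0.0757, 0.0749 and 0.0773) and TNFRSF10D (0.109, 0.132 and 0.130), and without DMSO 3 for TNFRSF25 (0.0527) and TNFRSF10D (0.0672).

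Among caspase substrates, LMNA, the gene of lamin A, which CASP6 cleaves, rose to 109, 92.6 and 145.9 FPKM in TSN 1, 2 and 3, against 53.4, 52.1 and 42.0 FPKM in DMSO 1, 2 and 3 (log2 fold change 1.20 ± 0.20 SE, limma adjusted p = 0.0147). DFFA, the inhibitor and chaperone of the apoptotic nuclease DFFB, fell to 8.54 ± 1.09 FPKM in TSN, against 14.0 ± 1.20 FPKM in DMSO (SD, n = 3 each; log2 fold change -0.65 ± 0.15 SE, limma adjusted p = 0.0347). These were the 2 past the threshold of the 13 genes in the substrate list, which also holds the nuclease DFFB. That is 15.4%, beside 14.9% of all genes tested, so the count is no result about substrates. In the inflammasome list, IL18, a substrate of CASP1, was the 1 of 4 tested genes past the threshold, at 1.66 ± 0.267 FPKM in TSN and 0.706 ± 0.102 FPKM in DMSO (SD, n = 3 each; limma adjusted p = 0.0236). It reached the filter through its TSN libraries alone, so that call is not independent of its direction. Without TSN 1, DMSO 1, DMSO 2 or DMSO 3, the limma adjusted p missed the threshold for LMNA (0.0745, 0.0682, 0.0729 and 0.0681), DFFA (0.134, 0.132, 0.144 and 0.140) and IL18 (0.106, 0.109, 0.0955 and 0.104). Of the 2 genes listed for the CASP2 platform, PIDD1 rose.

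By limma, 0 of 5 genes of mitochondrial release and 0 of 4 IAP genes passed, where IAP stands for the family of XIAP. At an unadjusted limma p under 0.05 there were 2 of the 5 (DIABLO and HTRA2, both lower in TSN) and 1 of the 4 (BIRC3), beside 30.8% of all genes tested, so these counts are no result about the lists. BIRC3 stood at 1.40 to 4.25 FPKM in TSN and 0.670 to 0.904 FPKM in DMSO, and reached the filter through its TSN libraries alone. These 3 were named after their values were seen. Cytochrome c (CYCS) stood at 83.9 ± 8.74 FPKM in TSN and 80.8 ± 6.27 FPKM in DMSO (limma adjusted p = 0.831), and AIFM1, the apoptosis-inducing factor of mitochondria, at 29.5 ± 1.62 FPKM in TSN and 27.8 ± 2.19 FPKM in DMSO (limma adjusted p = 0.693). BIRC5, known as survivin, stood at 63.7 ± 23.7 FPKM in TSN and 57.8 ± 8.52 FPKM in DMSO (limma adjusted p = 0.858). BIRC2, a ubiquitin ligase that acts at TNF receptors, stood at 6.95 ± 2.88 FPKM in TSN and 11.6 ± 2.07 FPKM in DMSO (limma adjusted p = 0.166). TSN 3 held the highest TSN value of BIRC5 and the lowest of BIRC2.

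**Figure D4:**
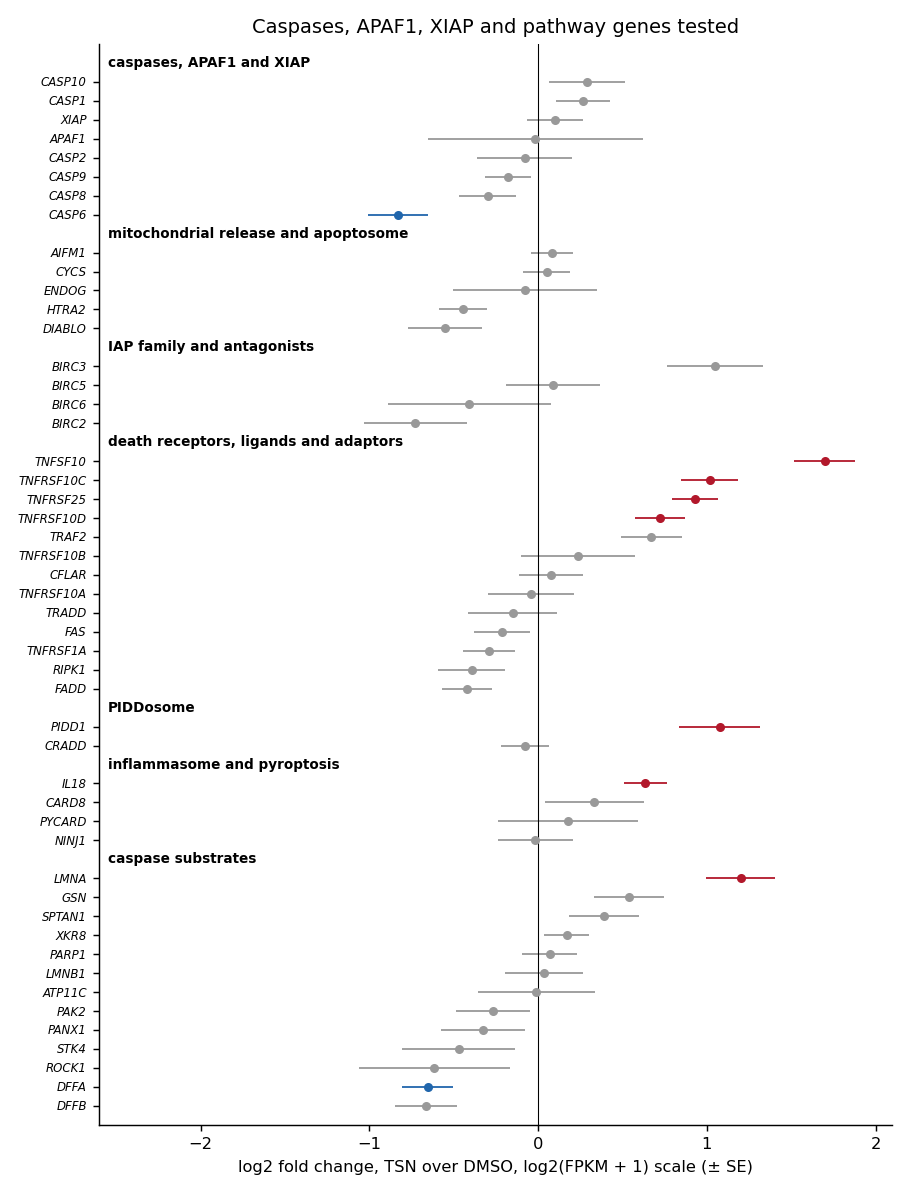
Log2 fold change of TSN over DMSO on the log2(FPKM + 1) scale (x axis, ± SE) for the 8 genes and the 41 tested pathway genes, by list. Red genes rose and blue genes fell at a limma adjusted p under 0.05 and grey ones did not pass, with CASP6 the only coloured gene of the top group and TNFSF10 the furthest to the right.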

How the data were processed

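The authors deposited 1 table of FPKM values for 30741 genes in 6 libraries; its unit was read from the values. GRCh38 and DESeq2 1.26.0 are named, per the submitters' processing notes. No aligner, counter, strand setting or gene length is given in the sources used here. Depth was estimated from single-exon genes, where 96.5% to 97.1% of low values were whole multiples of 1 step within 0.1. Because FPKM are not counts, no count model was used. Genes reaching 1 FPKM in 3 or more libraries were put on the log2(FPKM + 1) scale, and limma 3.58.1 (R 4.3.3) compared the groups with trended, robust variance moderation. Fold changes on this scale understate the change of low genes, and FPKM cannot show a change in total RNA per cell. Ratios were tested by exact permutation with SciPy 1.17.1. Errors cover the spread between 3 libraries, and estimated fragments cover counting error only. The procedure was tested on simulated data. Gene places and sequences came from GENCODE 29 and RefSeq. The 8 genes were always named; each pathway list contributed at most 2 risers and 2 fallers, by smallest adjusted p, or else the 2 with the highest mean; a called gene gave the 2 most alike by Pearson r with a mean of at least 5 FPKM. A few related results are not reported here. Genes and lists were chosen with earlier results of these data known.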

Additional observations from a re-analysis of the deposited data

How the results depend on the processing

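CASP6 kept its direction in all 16 alternatives, from -0.94 to -0.65, and passed in 10, with limma adjusted p from 0.00904 to 0.188. Of the 8 genes, 0 passed with no filter (limma adjusted p of CASP6 0.0780; in the fit reported 1 of 8, 12.5%, had an unadjusted p under 0.05, beside 30.8% of all genes), 0 to 1 with 1 library left out, and 3 without both libraries numbered 3 (CASP6, CASP10 and APAF1) or after the length and GC trend was removed (CASP1, CASP6 and CASP10). Over all genes, 1706 passed in the fit reported, 777 with no filter and 1002 at a mean of at least 5 FPKM. With 1 library left out, 259 to 2823 passed. The count was 259 without DMSO 2, 326 without DMSO 1, 369 without TSN 1 and 450 without DMSO 3. It was 2125 without TSN 2 and 2823 without TSN 3. Without both libraries numbered 3 the count was 3299, and with the trend removed it was 3380. With fewer libraries the fit has fewer residual degrees of freedom, and the count nevertheless rose without TSN 2 or TSN 3. The cause of these shifts was not tested. The replicate block gave 0 of 8 and 0 of all genes, with CASP6 at a limma adjusted p of 0.188. Same-numbered libraries deviated against each other (r of -0.32, -0.65 and -0.83 over genes). Differences between libraries of a group also went with exon length, so these r cannot settle whether the numbers pair the samples. APAF1 reversed to 0.064 with median log ratio scaling, 0.10 with quantile normalization, 0.20 with the trend removed, 0.98 without both libraries numbered 3, and ran from -0.57 to 0.68 with 1 library left out. CASP2 reversed to 0.028, 0.062, 0.12 and 0.31 in the same order, and ran from -0.34 to 0.19. The log2 difference in APAF1/XIAP ran from -0.78 to 0.51 with 1 library left out and was 0.75 without both libraries numbered 3. CASP8/CASP10 (-0.75 to -0.55), CASP8/CFLAR (-0.46 to -0.35) and CASP9/XIAP (-0.52 to -0.23) kept their direction with 1 library left out. The all-gene median of the log2 fold change was -0.0032 with median log ratio scaling and -0.10 as reported, and 56.5% of calls were higher, beside 51.7% as reported (67.3% with no filter). Of 8 pathway genes called, TNFSF10 passed in 15 of 16 alternatives and the others in 9 to 11.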

Other observations

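Of the pathway genes, 14 lay under the filter and were not tested. Every TSN value was higher in 4 of them (AIM2, BIRC7, NLRP1 and TNF) and lower in 1 (NLRP12). Groups thus lay apart in 5 of the 14, 35.7%, beside 39.2% of all genes tested. The 39.2% covers only genes that passed the filter, and the share among genes under it was not computed. The count is therefore no result about these genes. AIM2, a sensor of DNA, was listed at 0.406, 0.554 and 0.449 FPKM in TSN 1, 2 and 3, against 0, 0.0364 and 0.0136 FPKM in DMSO 1, 2 and 3. NLRP1, another sensor, had 1.78, 2.43 and 0.934 FPKM in TSN 1, 2 and 3, against 0.653, 0.654 and 0.567 FPKM in DMSO 1, 2 and 3. NLRP12, a regulator from the same family, had 0.384, 0.412 and 0.363 FPKM in TSN 1, 2 and 3, against 0.873, 0.754 and 0.665 FPKM in DMSO 1, 2 and 3. BIRC7, an IAP gene, stood at 0.0595 to 0.199 FPKM in TSN and 0 to 0.0375 FPKM in DMSO. The pore-forming substrate GSDMD stood at 0.222 to 0.383 FPKM in TSN and 0.0700 to 0.318 FPKM in DMSO, so its groups overlapped. TNF, a death receptor ligand, had 0.839, 0.606 and 0.789 FPKM in TSN 1, 2 and 3, against 0.0894, 0.0572 and 0.0962 FPKM in DMSO 1, 2 and 3. The genes named were picked after their values were seen, and the lowest of these values rest on few fragments.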
